A study of Mus musculus with 8 samples.

Results

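The genes described here are the organic ion uptake carriers of the Slc22a and Slco families and the ABC transporters of subfamilies B, C and G in developing mouse liver. Members were taken by gene symbol alone, as Slc22a or Slco followed by a number (uptake) and Abcb, Abcc or Abcg followed by a number (efflux), with Slco1b2 and Abcb11 set apart. This gave 62 of the 22059 genes listed, of which 37 were uptake members and 25 efflux members. Their mRNA was measured by poly(A) RNA-seq in whole liver from untreated wild-type FVB mice (FVB/NJ in the paper) at embryonic day 18 (E18), postnatal day 14 (P14), postnatal day 28 (P28) and in adults, with 2 samples per stage. The paper calls the samples biological duplicates and gives its adult mice as males of 3 months, while the labels give no sex, litter or batch for any sample. All measurements are of mRNA in whole tissue, so for every member fewer cells of a type and less RNA per cell cannot be told apart.

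Slc22a and Slco proteins carry organic cations, organic anions, bile acids, hormones and drugs across the plasma membrane, in hepatocytes mainly at the side facing the blood. ABC transporters use ATP to move their substrates, and several sit in the hepatocyte canalicular membrane, where they secrete phospholipid, sterols, conjugates and drugs into bile. The symbol families also hold proteins with other places or tasks, since some ABCB members sit in mitochondria, lysosomes or the ER, and a pair of ABCC members are subunits of potassium channels.

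Between 68154675 and 106055723 reads per sample fell on listed genes. Levels are given as TMM-scaled RPKM, the deposited reads per kilobase of transcript, relative to mapped reads (RPKM), rescaled by the trimmed mean of M-values (TMM), so that levels can be compared between genes and between stages. The scaling matters most at E18, where the TMM factors were 1.60 and 1.54 against 0.847 to 0.888 in the 6 later samples. Scaled by library size alone, the median log2 difference over all tested genes from E18 to adult was -0.95, against -0.11 with TMM. The livers carried hepatocyte markers at every stage (summed level of 5 markers 20800 and 21400 at E18, 39500 to 109000 later, with no marker at 0). Erythroid markers summed to 1900 and 2520 at E18 and to 19.0 to 31.4 in the 6 later samples. Xist was at 40.2 in E18 replicate 1 and 29.6 in P14 replicate 2, at 4.34 in E18 replicate 2, and at 0.0283 to 0.0506 in the other 5 samples. The 4 Y-linked markers summed to 0.00128 in E18 replicate 1, 3.67 in P14 replicate 2 and 25.8 to 51.1 elsewhere. E18 replicate 2 and P14 replicate 2 thus held both Xist and Y-linked RNA, and the paper does not give the number of animals per sequenced sample. Every P28 and adult sample was high in Y-linked RNA, and stage and sex cannot be fully told apart.

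The first question was how uptake compared with efflux across the 4 stages. Summed over the 37 uptake members, the level was 56.4 and 57.7 (E18), 406 and 414 (P14), 824 and 825 (P28) and 886 and 981 (adult) TMM-scaled RPKM. No sample of a later stage overlapped one of an earlier stage. The 25 efflux members summed to 270 and 303 (E18), 402 and 404 (P14), 369 and 360 (P28) and 405 and 399 (adult). From P14 on, the efflux sum thus varied within a narrow range, while the mean uptake sum went from 410 at P14 to 934 in adult. Against E18, the mean adult sum was 16.4 times higher for uptake and 1.41 times higher for efflux. On the deposited RPKM the uptake sum also went up, from a mean of 89.9 ± 0.152 (SD, n = 2) at E18 to 803 ± 74.5 (SD, n = 2) in adult, whereas the efflux sum went down, from 451 ± 29.8 (SD, n = 2) to 346 ± 3.92 (SD, n = 2), so the direction of the efflux sum depends on the scaling. Hepatocyte markers were also higher in adult than at E18 (4 of 5 called). Their sum, mostly Alb, was highest at P14 (108000 and 109000), whereas Tat went on from 328 and 346 at P14 to 1110 and 942 in adult. Their part in the uptake sum was not tested.

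The ratio of both sums does not depend on the scaling, and it was 0.209 and 0.19 (E18), 1.01 and 1.02 (P14), 2.24 and 2.29 (P28) and 2.19 and 2.46 (adult). In these sums, which leave out Slco1b2 and Abcb11, uptake was thus below efflux before birth, close to it at P14 and above it from P28. The P28 and adult samples overlapped. At P14 Slco1b2 alone was at 242 and 210, and Abcb11 at 75.9 and 71.0. Without the organelle ABCB members and the channel subunits, the mean ratio went from 0.465 ± 0.0135 (SD, n = 2) before birth to 1.21 ± 0.0127 (SD, n = 2) at P14, then to 2.93 ± 0.0712 (SD, n = 2) by P28, with 2.9 ± 0.235 (SD, n = 2) in adult. Leaving out Slc22a7, the uptake member with the highest level at P14, took the mean P14 ratio to 0.716, and leaving out Abcg5, the highest efflux member at P14, took it to 1.63. The order of the stages E18, P14 and then P28 and adult was the same in each of these versions.

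**Figure D1:**
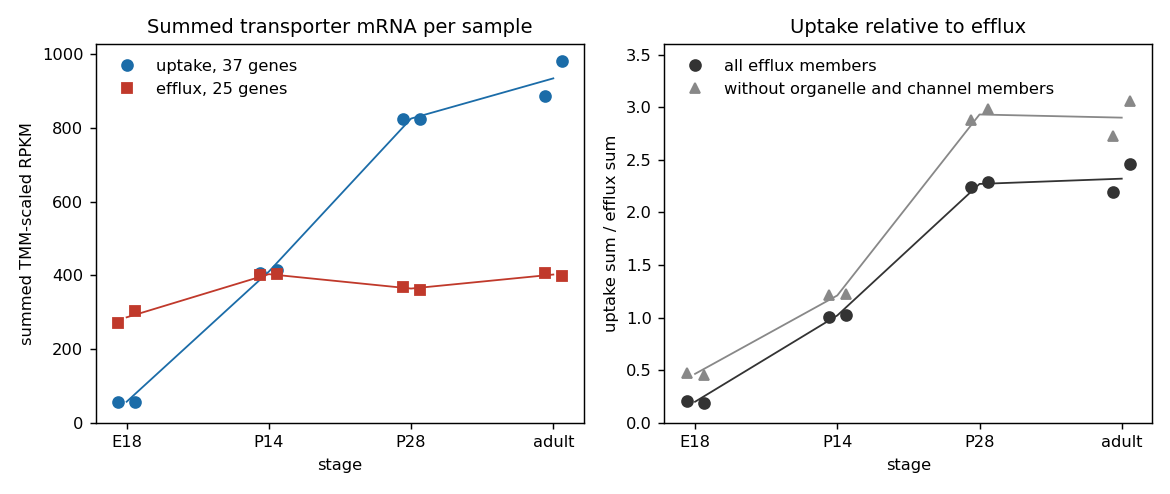
Summed TMM-scaled RPKM of the 37 uptake and 25 efflux members per sample (left) and the uptake sum divided by the efflux sum (right), by stage; points are samples and lines join the stage means of 2 samples. Both classes meet at P14, at 402 to 414, and the ratio goes from 0.209 and 0.19 at E18 to 2.19 and 2.46 in adult.

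The genes that made up each sum changed with stage. At E18 the orphan carrier Slc22a23 gave 29.3% and the ergothioneine carrier Slc22a4 21.9% of the uptake sum, and Slco1a1 and Slc22a7 together gave 0.112%. These 2 genes gave 33.6% of the uptake sum at P14, 48.0% at P28 and 53.5% in adult. In the efflux sum, mitochondrial Abcb10 gave 37.8% and Abcg2 20.1% at E18, sterol exporter Abcg5 gave 37.6% at P14, and no member gave more than 16.0% at P28 (Abcc6) or 15.1% in adult (Abcc2).

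Gene by gene, a member was called where the edgeR test gave a Benjamini-Hochberg false discovery rate below 0.1 over all 17081 genes tested and a change over 3-fold. Of the 62 members, 53 had enough reads to be tested (29 uptake and 24 efflux). From E18 to adult, 14 of 29 tested uptake members rose (48.3%) and 6 fell (20.7%), beside 16.8% and 23.8% of all tested genes (40.5% either way). The rises include Slco1a5, Slco1a6, Slco1c1, and Slc22a13 and Slc22a14 with almost the same reads, all under 1 deposited RPKM at every stage. With limma 8 uptake members rose, and 5 with at least 10 reads required in every sample. Of 24 tested efflux members, 6 rose (25.0%) and 7 fell (29.2%). The median log2 difference was 1.67 for uptake, 0.09 for efflux and -0.11 for all tested genes.

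Most of the change fell before P14. From E18 to P14, 13 uptake members rose and 5 fell, and 4 efflux members rose and 5 fell, beside 13.8% and 15.4% of all tested genes (29.2% either way). Without E18 replicate 1, 7 efflux members rose in this interval. From P14 to P28, 7 uptake members rose and 2 fell, while 1 efflux member rose (2 without adult replicate 1 or adult replicate 2) and 2 fell (3.61% and 5.98% of all tested genes, 9.59% either way). From P28 to adult, Slco1c1 rose and Slc22a26 fell among uptake members (0.767% and 2.24% of all tested genes, 3.0% either way). No efflux member was called in that interval by edgeR, DESeq2 or limma, although 11, 11 and 9 of them had an unadjusted p below 0.05 and 9 passed the edgeR false discovery rate with changes under 3-fold. Turning points were few: Slco1a4, Slc22a26, Abcb1a and Abcg5 rose in 1 interval and fell in a later one, and Slc22a4 fell and then rose.

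**Figure D2:**
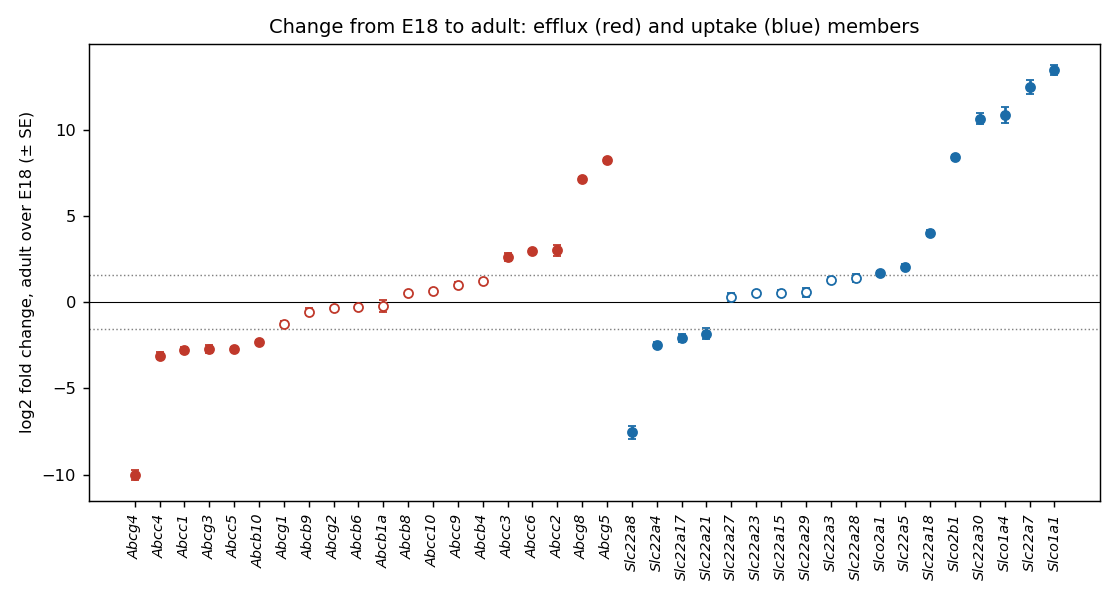
Log2 fold change from E18 to adult with its standard error (edgeR, 2 samples per stage) for the described efflux members (red) and uptake members (blue); filled circles were called, open circles were not, and dotted lines mark 3-fold. Efflux members run from -10.03 (Abcg4) to 8.21 (Abcg5) and uptake members from -7.56 (Slc22a8) to 13.45 (Slco1a1); Slc22a26, with 0 and 1 reads at E18, is left out.

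Of the 62 members, 41 reached a stage mean of 1 deposited RPKM (20 uptake, 21 efflux), and 39 of these are described one by one. By their highest TMM-scaled stage mean, uptake members peaked at E18 in 4 cases, at P14 in 2, at P28 in 6 and in the adult in 8. Of the efflux members, 7 peaked at E18, 6 each at P14 and P28, and Abcc2 and Abcc3 in adult. The tally depends on the scaling, since on the deposited RPKM 13 efflux and 7 uptake members peaked at E18. Neighbouring stages often overlapped, so for members without a call the peak is only the highest mean.

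**Figure D3:**
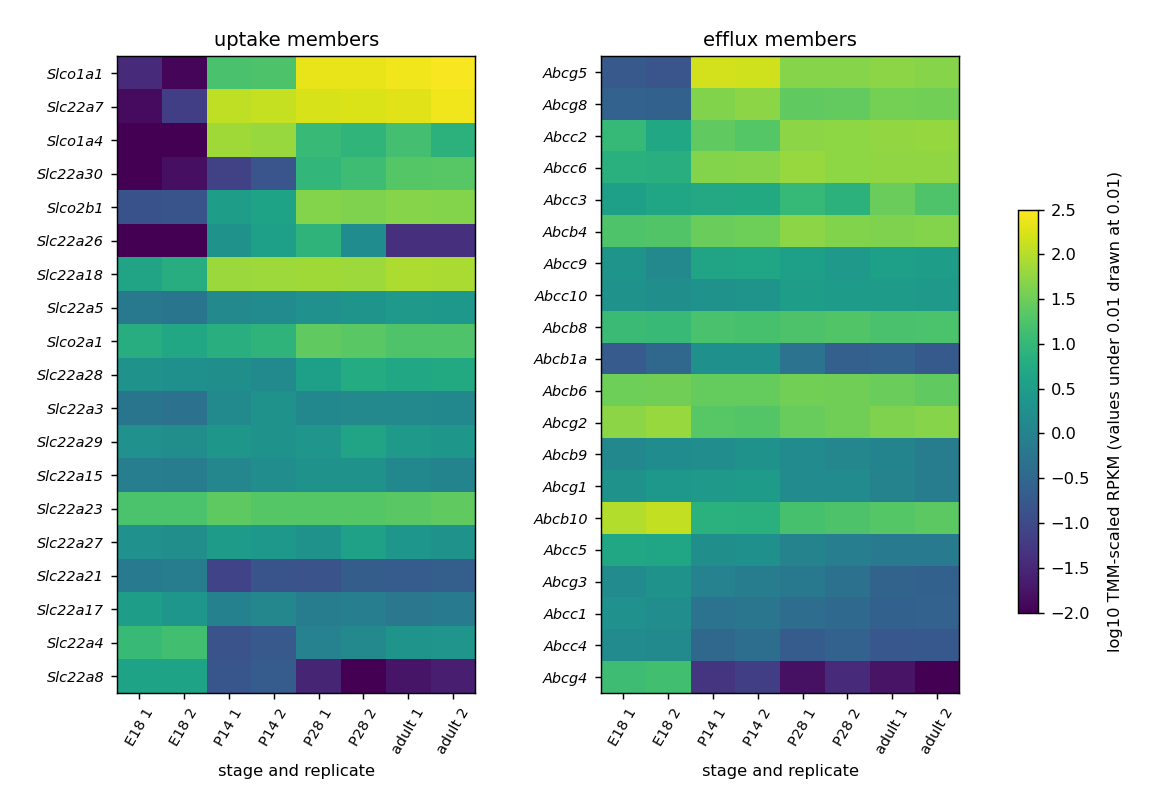
TMM-scaled RPKM of the 39 described members in each of the 8 samples on a log10 colour scale, with members ordered from the highest to the lowest log2 fold change from E18 to adult. Slco1a1 and Slc22a7 go from below 0.07 in both E18 samples to 198 to 290 in adult, and Abcb10 and Abcg4 are brightest at E18.

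Slco1a1 and Slco1a4 encode carriers of bile acids, steroid conjugates and drugs at the sinusoidal membrane, and in adult mouse liver Slco1a1 is known as male-predominant and Slco1a4 as female-predominant. Both lie on the minus strand of chromosome 6, in the GRCm38 build at chr6:141907282-141946962 and chr6:141805440-141856199. The 250 bases before each start (RefSeq, GRCm38.p6, minus strand) are shown because the neighbours moved apart after P14. Capitals mark matches on either strand to TATAAA, which 12.4% of all 32851 RefSeq promoter windows of this length hold. The letters AGATAA, searched in the same way, were in neither.
Slco1a1, chr6:141946963-141947212: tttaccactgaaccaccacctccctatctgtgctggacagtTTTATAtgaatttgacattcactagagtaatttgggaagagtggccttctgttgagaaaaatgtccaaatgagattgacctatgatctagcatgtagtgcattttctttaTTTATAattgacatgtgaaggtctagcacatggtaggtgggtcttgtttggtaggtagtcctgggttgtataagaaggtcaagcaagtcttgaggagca
Slco1a4, chr6:141856221-141856470: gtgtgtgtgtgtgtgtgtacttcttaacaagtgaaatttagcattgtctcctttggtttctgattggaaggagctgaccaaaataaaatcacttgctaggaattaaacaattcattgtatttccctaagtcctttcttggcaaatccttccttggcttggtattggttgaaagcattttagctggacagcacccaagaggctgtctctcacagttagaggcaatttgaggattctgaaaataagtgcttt
The Slco1a1 window held 2 matches to TATAAA and the Slco1a4 window 0, and the windows shared 0 stretches of 12 bases.

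Slco1a1 was at 0.0355 and 0.0115 (E18), 16.2 and 17.6 (P14), 222 and 225 (P28) and 256 and 290 (adult) TMM-scaled RPKM. It had the largest rise of the described members from E18 to adult (log2 fold change 13.45 ± 0.31 SE, adjusted p = 2.7e-09), and it rose again from P14 to P28 (3.72 ± 0.19). Slco1a4 had 2 and 4 reads at E18 and was at 71.4 and 63.7 (P14), 10.9 and 8.65 (P28) and 14.1 and 7.88 (adult). It rose from E18 to P14 (13.48 ± 0.47) and fell from P14 to P28 (-2.79 ± 0.25, adjusted p = 4.9e-05), with no overlap between the P14 and later samples. The neighbours thereby changed rank: the level of Slco1a4 was 4.4 and 3.62 times that of Slco1a1 at P14 and 0.0272 to 0.0553 times in the 4 later samples. Their longest transcripts shared few 50-base stretches (2.18% of those of Slco1a1). The sex-biased liver genes moved at the same time, and their part in these changes was not tested. The summed level of the female-biased Cyp2b9, Cyp3a41a and Cyp2b13 was 60.1 and 63.6 (P14), 13.9 and 2.86 (P28) and 0.611 and 0.13 (adult), and that of the male-biased Cyp2d9, Cyp4a12a and Mup20 went from 5.1 and 6.31 at P14 to 184 and 213 in adult. At P14, replicate 1 was high in Y-linked RNA, and replicate 2 was high in Xist and held some Y-linked RNA (summed level 3.67). Slco1a4 was at 71.4 and 63.7 in them, and the part of sex in its values was not tested.

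Slco2b1, a carrier of steroid sulfates and statins, rose in 2 steps, from 0.138 and 0.146 at E18 to 3.29 and 4.06 at P14 and to 47.1 and 43.1 at P28 (log2 fold changes 4.69 ± 0.14 and 3.62 ± 0.13). It stayed at 49.1 and 46.8 in adult, and 7.91% of its exon bases overlap an annotated antisense gene. The prostaglandin carrier Slco2a1 was at 6.33 and 5.03 (E18), 7.03 and 8.52 (P14), 24.8 and 22.1 (P28) and 17.9 and 18.1 (adult). The E18 and P14 samples lay close together and the later samples above them. Its change from E18 to adult lay near the 3-fold limit (1.67 ± 0.14, adjusted p = 3.2e-06) and was under it with library-size scaling (0.81), with limma (0.79) and without E18 replicate 2 (1.52). The change from P14 to P28 (1.59 ± 0.14) was likewise under 3-fold without P14 replicate 1 (1.46) or P28 replicate 1 (1.5), and at 1.55 to 1.58 with limma, library-size scaling, no filter or at least 10 reads in every sample.

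Among the organic cation and carnitine carriers, 2 of 6 tested members rose from E18 to adult and 2 fell (16.8% and 23.8% of all tested genes). Slc22a5, the carnitine carrier OCTN2, rose from 0.656 and 0.56 at E18 to 2.58 and 2.49 in adult (log2 fold change 2.06 ± 0.15, adjusted p = 1.2e-06), a change that was under 3-fold with library-size scaling (1.2) and limma (1.11). Slc22a3, which encodes the extraneuronal monoamine transporter OCT3, rose from 0.55 and 0.504 at E18 to 1.4 and 2.08 at P14 (1.72 ± 0.19, adjusted p = 4.1e-05). That call was lost without P14 replicate 2 (1.42), without the 2 libraries highest in Xist (1.47) and with library-size scaling (0.85), and 9.31% of its exon bases overlap Plg, an abundant liver gene on the opposite strand.

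Slc22a4 turned back. It was at 11.4 and 13.6 (E18), 0.139 and 0.18 (P14), 0.993 and 1.32 (P28) and 2.16 and 2.22 (adult), so no stage overlapped another. It fell by 6.29 ± 0.21 on the log2 scale from E18 to P14 (adjusted p = 2.4e-08) and rose by 2.85 ± 0.21 from P14 to P28 (adjusted p = 1.8e-05), and in adult it was still below E18 (-2.51 ± 0.17). Slc22a21, a carnitine carrier gene next to it on chromosome 11, went from 0.756 and 0.787 at E18 to 0.0795 and 0.15 at P14 (-2.75 ± 0.32) and 0.202 and 0.232 in adult (-1.83 ± 0.31). Its longest transcript shares 23.8% of its 50-base stretches with Slc22a5, so reads may have been divided between them. The erythroid markers were also highest at E18, with 6 of 6 called lower at P14, and their part in the fall of Slc22a4 was not tested.

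Among organic anion carriers, 8 of 13 had enough reads to be tested, of which 3 rose and 1 fell from E18 to adult. Over all tested genes, 16.8% rose and 23.8% fell. Slc22a7, the hepatic organic anion carrier OAT2, was at 0.0134 and 0.0682 (E18), 116 and 126 (P14), 167 and 177 (P28) and 198 and 258 (adult). It was called higher from E18 to P14 (log2 fold change 11.57 ± 0.38, adjusted p = 2e-08) and not in the later intervals. Slc22a8, better known as the kidney carrier OAT3, moved the other way, from 4.07 and 4.1 at E18 to 0.162 and 0.205 (P14), 0.0298 and 0.00371 (P28) and 0.0182 and 0.0239 (adult). It fell by 4.48 ± 0.27 on the log2 scale to P14 (adjusted p = 6.3e-07) and by 3.37 ± 0.44 from P14 to P28, where it had 9 and 1 reads. The 5 kidney markers were near 0 in every sample, summing to at most 0.145, and Umod, Slc34a1, Aqp2 and Slc12a1 had too few reads to be tested. Nphs1 had 40 and 69 reads at E18 and at most 10 later, and was called lower in adult like Slc22a8, and its part was not tested.

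A cluster of further Slc22a genes lies on chromosome 19 (GRCm38, from Slc22a26 at chr19:7781041-7802667 to Slc22a30 at chr19:8335371-8405111). These genes resemble each other, and in their longest transcripts 53.3% of the 50-base stretches of Slc22a28 and 32.0% of those of Slc22a30 were shared with the other of the pair, so their values are uncertain where reads could map to both. Slc22a30 was at 0.0101 and 0.0152 (E18), 0.0762 and 0.151 (P14), 9.55 and 12.7 (P28) and 20.6 and 21.4 (adult). Unlike most uptake members it made its largest step after P14 (6.61 ± 0.25, adjusted p = 7e-07). Slc22a28 stood at 2.04 and 1.85 at E18 and 4.79 and 5.32 in adult, a difference of 1.38 ± 0.23 that was under 3-fold. Slc22a27 and Slc22a29, which shared 25.8% of the 50-base stretches of Slc22a27, had log2 differences of 0.28 ± 0.26 and 0.56 ± 0.26 from E18 to adult, neither called, and both turned negative with library-size scaling (-0.57 and -0.3).

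Slc22a26 peaked in the middle of the series. It had 0 and 1 reads at E18, was at 1.99 and 3.52 (P14), 8.47 and 1.54 (P28) and 0.0399 and 0.0419 (adult) (5 and 6 reads). It fell from P28 to adult by 6.91 ± 0.99 on the log2 scale (adjusted p = 0.0027), and both P28 samples lay above both adult samples. The P28 samples differed most from each other, and the summed female-biased liver genes did so in the same sense, at 13.9 in replicate 1 and 2.86 in replicate 2. The part of those genes in this difference was not tested.

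Of the 5 orphan and less studied Slc22a members, 2 rose from E18 to adult (Slc22a18 and Slc22a14, the latter from few reads) and 1 fell (Slc22a17). Over all tested genes, 16.8% rose and 23.8% fell. Slc22a18, an imprinted gene for a proposed organic cation transporter, rose from 4.31 and 6.24 at E18 to 66.6 and 69.2 at P14 (log2 fold change 3.69 ± 0.16, adjusted p = 1e-07) and was at 72.5 and 70.1 at P28 and 87.2 and 83.2 in adult. Slc22a17, a receptor for lipocalin 2, went down from 3.3 and 2.31 at E18 to 0.599 and 0.727 in adult (-2.08 ± 0.23, adjusted p = 2.3e-05). Slc22a23 lay between 16.5 and 25.6 in all 8 samples (0.51 ± 0.11), and Slc22a15 between 0.765 and 2.07 (0.52 ± 0.16). Neither was called, and both values were negative with library-size scaling (-0.34 and -0.33).

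Among the ABCB genes of the cell surface, Abcb4 encodes the canalicular phospholipid floppase and Abcb1a a multidrug exporter. Abcb4 was at 18.5 and 19.3 (E18), 30 and 32.1 (P14), 51.3 and 44.8 (P28) and 42.6 and 46.7 (adult). The later samples all lay above E18, but the difference to adult was under 3-fold (log2 fold change 1.24 ± 0.1, adjusted p = 3.7e-06). Abcb1a was at 0.199 and 0.328 (E18), 1.78 and 1.8 (P14), 0.509 and 0.243 (P28) and 0.26 and 0.189 (adult). It rose to P14 (2.76 ± 0.34, adjusted p = 7.7e-05) and fell to P28 (-2.24 ± 0.34, adjusted p = 0.00084), so that P14 stood apart from all other stages. Its longest transcript shares 15.5% of its 50-base stretches with Abcb1b, which stayed at 0.063 to 0.171.

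The ABCB genes of organelles held the largest part of the efflux sum before birth, with a summed level of 148 and 175 at E18 and 61.0 to 80.2 in the 6 later samples. Most of it was Abcb10, a transporter of the inner mitochondrial membrane that is needed for haemoglobin synthesis in red cell precursors. Abcb10 was at 96.1 and 121 (E18), 7.55 and 7.2 (P14), 15.8 and 17.3 (P28) and 20.6 and 22.9 (adult). It fell by 3.88 ± 0.14 on the log2 scale to P14 (adjusted p = 3.4e-08), and the later samples were again higher than P14 (1.17 ± 0.13 from P14 to P28, under 3-fold). The 6 erythroid markers were all called lower at P14, none of them at 0 at E18. From P14 to P28, 4 of the 6 were again called lower, while Klf1 (-0.2 ± 0.18) and Alas2 (0.71 ± 0.18) were not called. Alas2 was higher at P28 than at P14, as Abcb10 was, at 16.5 and 13.6 (P14) and 23.2 and 26.1 (P28). Their part in the Abcb10 values was not tested. Abcb6, Abcb8 and Abcb9 were not called in any comparison. For Abcb6, 55.2% of the exon bases overlap Gm29253, an annotated gene on the same strand, so its reads may not be its own alone. From E18 to adult the log2 differences were -0.27 ± 0.1 for Abcb6, 0.5 ± 0.08 for Abcb8 and -0.56 ± 0.2 for Abcb9. With library-size scaling Abcb8 was lower in adult (-0.35).

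The 8 ABCC exporters divided, with 4 rising and 3 falling from E18 to adult, beside 16.8% and 23.8% of all tested genes. Abcc2 encodes MRP2, the canalicular exporter of bilirubin glucuronides. It was at 10.3 and 4.88 (E18), 24.7 and 20.6 (P14), 51.8 and 55.3 (P28) and 59 and 62.6 (adult) (log2 fold change from E18 to adult 3.0 ± 0.3, adjusted p = 1.2e-05). The E18 duplicates differed from each other by more than those of any later stage, and the difference from E18 to P14 (1.57 ± 0.28) was just under 3-fold and passed it without E18 replicate 1 (2.22). Abcc6, whose loss causes pseudoxanthoma elasticum, rose from 7.2 and 7.02 at E18 to 46.2 and 47.4 at P14 (2.72 ± 0.11, adjusted p = 5.7e-08) and was at 63.1 and 53.6 at P28 and 56.3 and 56.2 in adult. Abcc3, an exporter of conjugates into the blood, was late, at 3.41 and 4.35 (E18), 5.3 and 5.39 (P14), 10.5 and 7.75 (P28) and 29.2 and 18.2 (adult). Its change from E18 to adult was called (2.61 ± 0.24, adjusted p = 6.4e-06), and its largest step was the last (1.38 ± 0.23), which was under 3-fold but passed it without P28 replicate 1 (1.61) or adult replicate 2 (1.68).

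Abcc1, Abcc4 and Abcc5, exporters found in many cell types, all fell. Abcc1 went from 1.92 and 1.59 at E18 to 0.248 and 0.26 in adult (-2.79 ± 0.17, adjusted p = 4.2e-07), Abcc4 from 1.49 and 1.43 to 0.165 and 0.173 (-3.1 ± 0.19, adjusted p = 4.9e-07), and Abcc5 from 4.89 and 4.44 to 0.694 and 0.735 (-2.71 ± 0.13, adjusted p = 9.5e-08). In each of them the E18 samples were above all later samples. The fall of Abcc1 to P14 (-1.68 ± 0.16) was under 3-fold without E18 replicate 1 (-1.53). Megakaryocyte markers (167 and 232 at E18, 2.75 to 17.1 later, 4 of 4 lower) and neutrophil markers (741 and 926 at E18, 0.961 to 155 later, 5 of 5 lower) moved in the same direction, and their part was not tested. Abcc10 was at 1.71 to 3.26 in all samples (0.67 ± 0.11, and -0.18 with library-size scaling), and the channel subunit Abcc9 at 1.33 to 4.66 (0.99 ± 0.2), neither called.

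The ABCG subfamily held both the largest rise and the largest fall among the efflux members. Abcg5 and Abcg8 encode both subunits of the sterol exporter that secretes cholesterol and plant sterols into bile. They lie on opposite strands of chromosome 17 (GRCm38, chr17:84658234-84683011 on the minus strand and chr17:84676302-84700333 on the plus strand), and these gene models overlap. The RefSeq starts used here, 84683011 for Abcg5 and 84683121 for Abcg8 (the highest listed for Abcg8), lie head to head. The 109 bases between them are shown because the pair rose together, with capitals at matches to AGATAA or TATAAA on either strand (GRCm38.p6, plus strand).
Abcg5-Abcg8, chr17:84683012-84683120: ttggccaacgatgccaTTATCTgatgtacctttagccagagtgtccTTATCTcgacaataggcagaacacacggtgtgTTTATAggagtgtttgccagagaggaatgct
It held 2 matches to AGATAA, which 3.98% of RefSeq promoter windows cut to this length hold at least once, and 1 to TATAAA, held by 5.9%. These are matches of letters only.

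Abcg5 was at 0.184 and 0.154 (E18), 154 and 149 (P14), 47.3 and 47.8 (P28) and 52.8 and 47.7 (adult). Abcg8 was at 0.258 and 0.245 (E18), 45 and 53 (P14), 25.5 and 26.5 (P28) and 35.7 and 35.2 (adult). Both were highest at P14 in both samples, and their rises to P14 were 9.8 ± 0.15 (adjusted p = 2.7e-09) and 7.6 ± 0.14 (adjusted p = 3e-09) on the log2 scale. From P14 to P28 Abcg5 fell (-1.67 ± 0.1, adjusted p = 5.4e-06), while the difference of Abcg8 was under 3-fold (-0.91 ± 0.1). Per length, Abcg5 was at 0.711 and 0.63 times the level of Abcg8 at E18, 3.41 and 2.82 times at P14 and 1.35 to 1.86 times in the 4 later samples. Abcg8 was thus the higher of the pair in both E18 samples and Abcg5 in all later ones.

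Abcg4, a cholesterol exporter known from brain, was at 12.8 and 13.8 at E18 and 0.0476 and 0.069 at P14, and at 0.00773 to 0.0359 in the 4 later samples. This was the largest fall among the described members (log2 fold change from E18 to adult -10.03 ± 0.29, adjusted p = 5.5e-09). Abcg2, which exports urate, porphyrins and drugs, was at 52.3 and 62.9 (E18), 21.4 and 19.7 (P14), 28.7 and 33.6 (P28) and 43.1 and 48.4 (adult). Its difference from E18 to P14 (-1.49 ± 0.13) was under 3-fold, and over it with library-size scaling (-2.35) and without E18 replicate 1 (-1.61). Abcg3, a rodent member, fell from 1.46 and 1.95 at E18 to 0.269 and 0.249 in adult (-2.72 ± 0.24, adjusted p = 5e-06), and Abcg1, a cholesterol exporter of macrophages, went from 1.94 and 2.55 to 1.03 and 0.814 (-1.28 ± 0.17), which was under 3-fold. The erythroid and megakaryocyte markers given above shared the fall of Abcg4 and Abcg3, and their part was not tested.

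**Figure D4:**
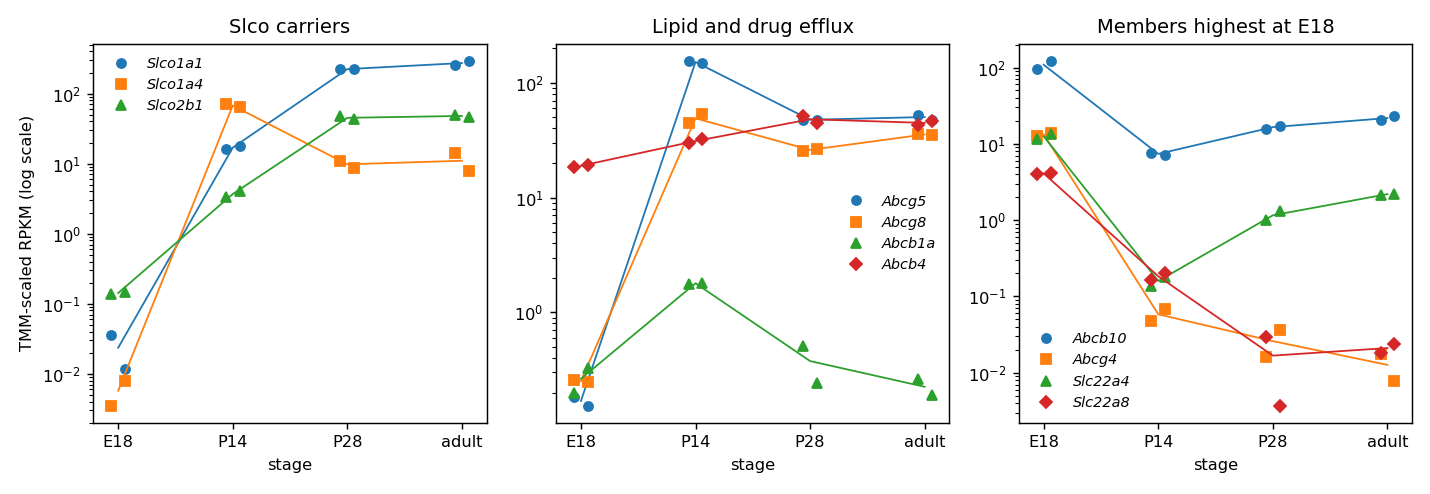
TMM-scaled RPKM on a log axis by stage for Slco carriers (left), lipid and drug exporters (middle) and 4 members highest at E18 (right); points are samples and lines join the means of 2 samples. Slco1a4, Abcg5, Abcg8 and Abcb1a stand highest at P14, while Slc22a4 and Abcb10 are lowest at P14 and Abcg4 and Slc22a8 lie at 0.00371 to 0.0359 from P28.

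The other 21 members stayed under a stage mean of 1 deposited RPKM, and 1.25 TMM-scaled RPKM was their highest value in any sample (Slco1c1 in adult). Of these, 9, named Abcb5, Slc22a6, Slc22a12, Slc22a16, Slc22a19, Slc22a20, Slc22a22, Slco5a1 and Slco6b1, were not tested and had at most 20 reads in any sample. Of the 12 that were tested, 6 rose from E18 to adult (16.8% of all tested genes). Slco1c1, a thyroid hormone carrier, had 3 and 7 reads at E18 and 177 and 283 in adult, and was the only uptake member called higher from P28 to adult (log2 fold change 1.6 ± 0.41). That call was lost without P28 replicate 1 (1.06), without adult replicate 2 (1.33) and with limma (1.41). Slc22a13 and Slc22a14 had almost the same reads in each sample (170 and 171 in P14 replicate 1), so their values cannot be taken as separate. Their gene bodies overlap on chromosome 9, and the source of the alike reads was not tested. Slco1a5, Slco1a6 and Abcc12 also rose, with at most 61 reads in a sample. Abcc8, the sulfonylurea receptor of pancreatic beta cells, fell from 189 and 132 reads at E18 to at most 3 reads later. Pancreatic endocrine markers were likewise highest at E18 (summed level 6.54 and 26.0, at most 1.11 later, 6 of 6 called lower). Within E18 their sum was higher in replicate 2, while Kcnj11, one of them, had 49 and 43 reads and Abcc8 had more reads in replicate 1. The part of these markers was not tested. Slco4a1 and Slco4c1 fell too (-3.6 and -4.32), and Abcb1b, Slc22a2 and Slco3a1 were not called from E18 to adult.

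Other transport genes of the hepatocyte and the nuclear receptors and transcription factors known to act on these families were listed for comparison. Of 16 transport genes listed, 14 were in the data and tested, and 10 rose and 2 fell from E18 to adult. Over all tested genes, 16.8% rose and 23.8% fell. Slco1b2, the main liver OATP, was at 1.04 and 1.58 at E18 and 651 and 712 in adult (log2 fold change 9.03), the bile salt export pump Abcb11 at 5.07 and 5.58 and then 108 and 119 (4.42), and the sodium-dependent bile acid carrier Slc10a1 at 5.11 and 5.21 and then 521 and 562 (6.71). All 3 had their largest step before P14, as most called uptake members did. Ostb, a subunit of the basolateral bile acid exporter, peaked at P14 like Abcg5 and Slco1a4, at 28.4 and 30.8 against 0.124 and 0.171 at E18 and 3.21 and 2.99 in adult. Of 10 regulators, 8 rose from E18 to adult (16.8% of all tested genes) and the same number from E18 to P14 (13.8%). Nr1i3 (CAR), a xenobiotic sensor, went from 2.12 and 1.85 at E18 to 62.8 and 65.5 at P14, Nr1h4 (FXR), the bile acid receptor, from 3.28 and 3.35 to 49.1 and 41.0, and Nr1i2 (PXR) from 5.97 and 6.22 to 42.0 and 41.3. Nfe2l2 and Ahr were not called.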

How the data were processed

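Poly(A) RNA of whole liver (8 samples, 2 per stage) was sequenced by the authors as 100 bp read pairs. The processing notes name mm9, and the aligner, strand setting and counting of mates are not given in the sources used here. The labels name Trizol and the methods RNeasy for RNA isolation. The authors deposited, for 22059 gene symbols, raw read counts without normalization. The deposited RPKM values were computed by the authors per kilobase of transcript and relative to mapped reads.

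Counts were tested with edgeR (version 4.0.16) after filterByExpr and TMM scaling, with glmQLFit and glmQLFTest on 4 stage coefficients over all 8 samples. A call needed over 3-fold, the limit in the results of the paper, and a Benjamini-Hochberg adjusted p below 0.1. The latter is the false discovery rate of its methods, which used another count test. A figure legend of the paper pairs the fold limit with Fisher's exact test. TMM-scaled RPKM are the deposited RPKM times 1 factor per sample. P-values rest on the spread between the 2 samples of a stage, taken as 1 estimate per gene that all 4 stages share. Duplicates differed by more than counting noise. Alternatives were DESeq2 (version 1.42.0), limma (version 3.58.1) on log2(RPKM + 0.1), other scalings, filters and samples. The added alternatives (without the 2 libraries highest in Xist, and cell-surface efflux alone) were chosen after seeing the data. The tests were tried on simulated data. Members were described one by one where the highest stage mean was at least 1 deposited RPKM. The values of some members are not reported here one by one, though they count in the sums and calls. All 62 members matched GENCODE M21 (GRCm38), which was used for positions and shared sequence, and 49 had a RefSeq promoter window. Protein sequences were not used here. Members, lists and tests were chosen with earlier results of these data known. The marker lists for B cells, macrophages, cholangiocytes, endothelial, stellate, pancreatic acinar and intestinal cells are given in the closing section.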

Additional observations from a re-analysis of the deposited data

How the results depend on the processing

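All 52 called changes of the members described one by one kept their direction under every alternative in which they were tested. Of these, 45 also stayed past the threshold in each such alternative. With at least 10 reads in every sample, 32 of the 52 stayed called, 2 fell under the threshold and the rest were not tested. Requiring at least 10 reads in every sample leaves 37 members and cut the uptake calls to 8 of 20 from E18 to adult, 7 of 18 from E18 to P14, 2 of 9 from P14 to P28 and 0 of 2 from P28 to adult, since members near 0 at one stage are no longer tested. A 2-fold limit gave 14 efflux calls from E18 to P14 (9 at 3-fold), 7 from P14 to P28 (3) and 2 from P28 to adult (0). With limma, 1 uptake member was called from P28 to adult and 8 rose from E18 to adult (14 with edgeR). Leaving out single samples gave 1 to 2 uptake and 0 to 1 efflux calls from P28 to adult, the 1 efflux call without P28 replicate 1 or without adult replicate 2, which also lost the uptake call of Slco1c1. Without E18 replicate 1 alone, and without both libraries highest in Xist, of which it is one, 7 efflux members rose from E18 to P14 (4). With library-size scaling and with limma, 8 efflux members fell from E18 to P14 (5). The log2 differences from E18 to adult that changed sign with library-size scaling and with limma were those of Abcb8 (-0.35 and -0.37), Abcc10 (-0.18 and -0.19), Slc22a15 (-0.33 and -0.32), Slc22a23 (-0.34 and -0.37), Slc22a27 (-0.57 and -0.57) and Slc22a29 (-0.3 and -0.31), none of which was called. Abcb1a ranged from -0.56 to 0.17 without single samples. With limma, Slc22a30 from E18 to P14 (0.71) and Slc22a8 from P14 to P28 (-1.19) were under 3-fold. Genes with few reads are limited by counting.

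The replicate numbers did not pair the samples, since same-numbered samples deviated together with correlations of -0.42 to 0.156 over 8540 genes. With the replicate number as a block, 10 efflux members were called from E18 to P14 (9 without it), the added one being Abcc2 (1.61), and the counts of calls in the other comparisons were equal.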

Other observations

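The remaining cell type lists, as summed TMM-scaled RPKM, moved in several directions. B cell markers (4 genes) were at 2.57 and 4.37 at E18, 5.25 and 6.13 at P14 and 1.25 to 1.8 later. Macrophage markers were at 38.8 and 51.0 at E18, 108 to 156 at P14 and P28 and 75.4 and 77.1 in adult. From P14 this sum was mostly Clec4f and Vsig4, both called higher from E18 to adult, while Emr1 was called lower. Cd68 (log2 fold change -1.42) and Csf1r (-0.89) were also lower in adult, by under 3-fold. Cholangiocyte markers lay between 22.4 and 50.3 in all samples, although Krt7, Krt19 and Epcam were called lower from E18 to adult and Spp1, the largest part of the sum from P14, was called higher. Endothelial markers were at 49.6 and 43.8 at E18, 70.7 and 65.7 at P14 and 15.3 to 26.8 later, with Lyve1 called lower from E18 to adult. Stellate cell markers were at 34.3 and 28.1 at E18, 108 and 117 at P14 and 44.3 to 71.2 later, with Lrat called higher from E18 to adult. Pancreatic acinar markers were at 180 and 408 at E18 and at 3.85 to 10.1 later, with 5 of 6 called lower from E18 to adult. Of the intestinal markers, Vil1, Lct and Cdx2 were called lower from E18 to adult, while Fabp2, at 5.36 and 8.02 at E18 and 67.1 to 183 later, was called higher.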
